A study of Mus musculus with 28 samples.

Results

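Dendritic cell transcripts were followed in RNA from splenic T cell preparations of mice given rapamycin in a polymer carrier, free rapamycin, oral rapamycin or no treatment. The genes were 9 listed symbols of the 55413 genes in the deposited files, 6 of them marking conventional dendritic cells (Flt3, Xcr1, Clec9a, Zbtb46, Itgax and Cd209a) and 3 marking plasmacytoid dendritic cells (Siglech, Ccr9 and Tcf4). They were listed by symbol, with earlier results of these data known, so their direction against NT is not independent evidence, and each symbol was matched to its Ensembl gene identifier. All 9 passed the filter on low counts and were among the 17132 genes tested.

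The mice were healthy male C57BL/6J animals aged 8 to 12 weeks, and all treated animals received 1 dose a day for 11 days before the spleens were taken. The untreated mice (NT) gave 7 libraries. Empty polymersomes of poly(ethylene glycol)-block-poly(propylene sulfide), hollow polymer vesicles, were injected under the skin in PS (4 libraries). The same vesicles carrying rapamycin, an inhibitor of the growth kinase mTOR, were injected in rPS (5 libraries). Rapamycin in 0.2% CMC was injected in R (6 libraries), and the marketed oral form Rapamune was given by gavage in RO (6 libraries); the rapamycin dose was 1 mg per kg body weight in R, RO and rPS. The polymer stood at about 7.5 mg per ml in rPS, and PS was matched to it by polymer and volume. Each library is bulk RNA of cells sorted magnetically and labelled as CD3+ T cells, and no group received the CMC vehicle alone.

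Dendritic cells take up antigen and present it to T cells. Conventional dendritic cells depend on the receptor tyrosine kinase FLT3 and are commonly divided into a cross-presenting type, marked by the chemokine receptor XCR1 and the dead-cell receptor CLEC9A, and a second type that includes cells with the lectin CD209a. Plasmacytoid dendritic cells carry SIGLEC-H, make type I interferon on viral sensing and need the E-protein TCF4. Several of these genes are also used elsewhere: Ccr9 by subsets of T cells, Tcf4 by B cells, and Itgax by macrophages, NK cells and activated lymphocytes.

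The 28 libraries held between 4286897 and 15696546 counts, so that 3 counts, the floor used here for detection, corresponded to between 0.191 and 0.700 CPM, the count scaled to the library's total. The lowest member value, 0.777 CPM for Cd209a in rPS replicate 5, lay above that library's floor. RO replicate 7 listed 0 for every gene of 10 chromosomes and the end of chromosome 12, Tcf4 among them, and was left out of all fits and group values, which leaves 5 RO libraries. In 7 libraries, which were replicates 3, 4, 5, 7 and 8 of NT with replicate 3 of R and of RO, a 15-gene T cell list lay below a 15-gene monocyte and macrophage list in mean log2(CPM + 1), and these are called the T-cell-poor libraries. Their Cd3e, a subunit of the T cell receptor complex, measured 9.58 to 75.95 CPM against 122 to 471 in the 20 others, and their Lyz2, the myeloid lysozyme, 693 to 3721 against 18.9 to 479.5. Both genes belong to the lists that set this split, so their separation is partly built in. The monocyte and macrophage list, all 15 genes of which were detected, had a lowest and highest summed CPM of 1144 and 12387 among NT libraries, 1004 and 1467 among PS, 1755 and 8960.3 among R, 958 and 10316 among RO, and 332 and 2649 among rPS libraries. For the T cell list, the lowest and highest were 342 and 5403 in NT, 3121 and 4356 in PS, 207 and 2919.9 in R, 738 and 3794 in RO, and 1999 and 5068 in rPS. In NT only replicates 2 and 6 were not T-cell-poor, so that low T cell content and the NT label cannot be fully told apart.

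By identifier, the conventional genes were Flt3 (ENSMUSG00000042817.16, chromosome 5), Xcr1 (ENSMUSG00000060509.6, chromosome 9), Clec9a (ENSMUSG00000046080.18, chromosome 6), Zbtb46 (ENSMUSG00000027583.14, chromosome 2), Itgax (ENSMUSG00000030789.10, chromosome 7) and Cd209a (ENSMUSG00000031494.8, chromosome 8), and the plasmacytoid genes were Siglech (ENSMUSG00000051504.19, chromosome 7), Ccr9 (ENSMUSG00000029530.17, chromosome 9) and Tcf4 (ENSMUSG00000053477.19, chromosome 18). All 9 were detected in each of the 27 libraries used. Scaled by exon length, Itgax, the CD11c integrin chain, stood highest with a median of 11.8 CPM per kilobase over 27 libraries, followed by Tcf4 at 5.72, Clec9a at 5.36, Flt3 at 4.13, Ccr9 at 4.12, Cd209a at 3.75, Siglech at 3.61, Zbtb46 at 2.39 and Xcr1 at 1.18. The ranges of every pair of neighbours in this order overlapped. In 8 of the 9 genes the highest group median was that of NT, and Ccr9 was the exception, with its highest median in PS.

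**Figure D1:**
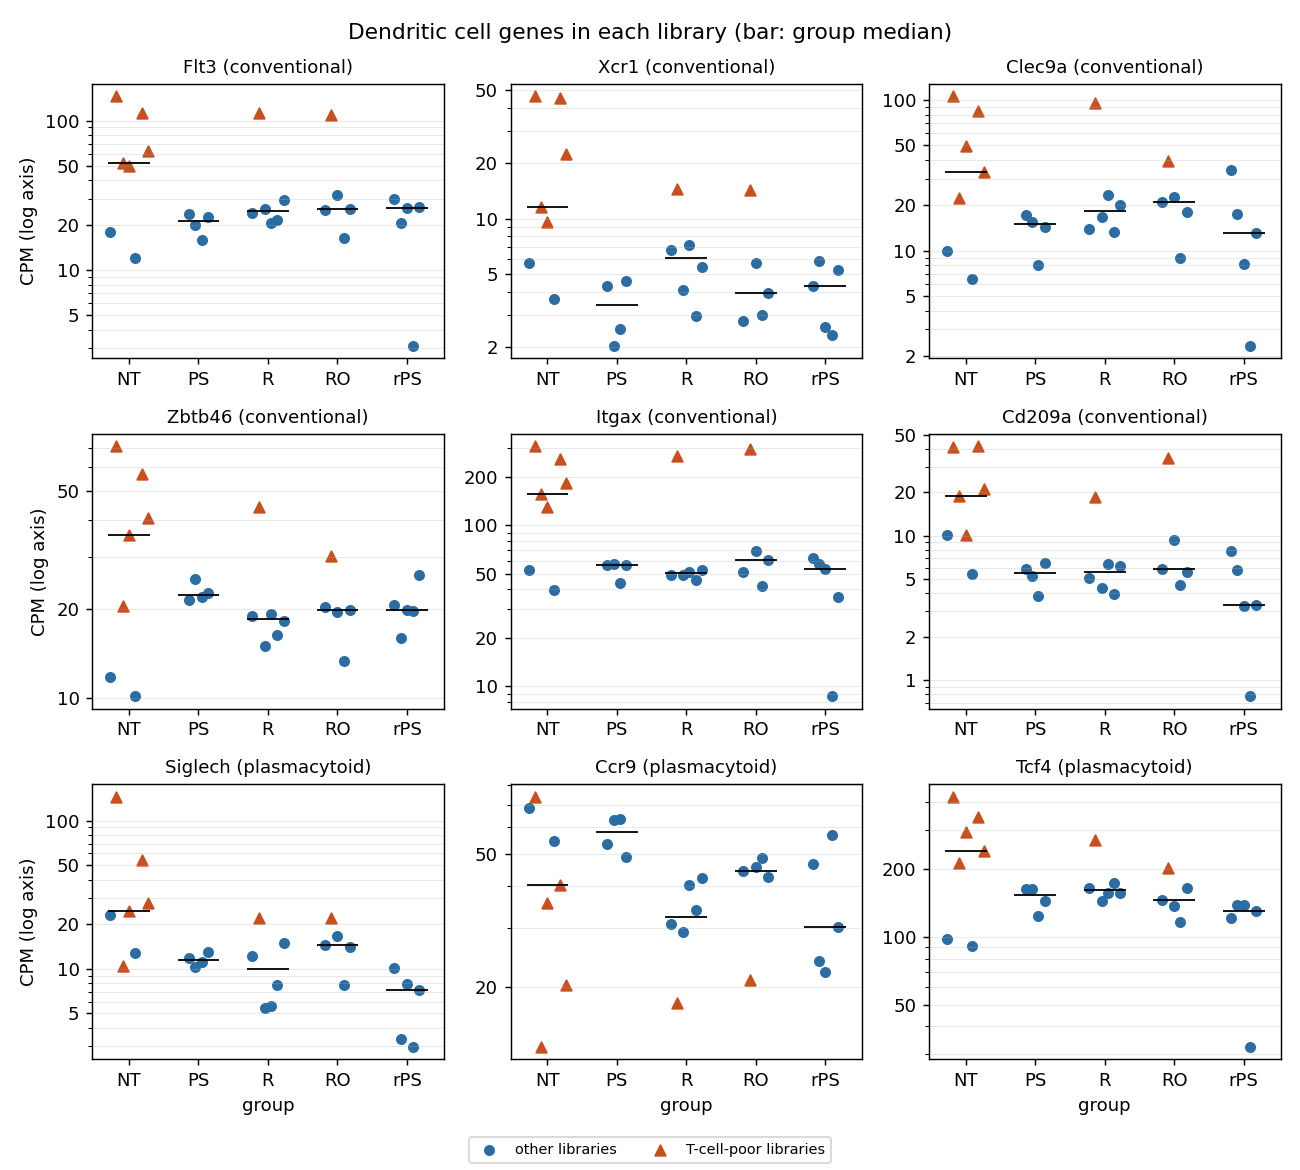
CPM of each of the 9 genes (log axis) in the 27 libraries used, by treatment group, with triangles for the 7 T-cell-poor libraries, circles for the 20 others and a bar at the group median. The NT triangles carry the high NT medians, and in Siglech all 5 rPS circles lie below every NT and PS point.

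The receptors of conventional dendritic cells had their widest ranges in NT. Flt3, the growth factor receptor of dendritic cell progenitors and mature conventional cells, had a lowest, median and highest NT value of 12.1, 52.1 and 146 CPM. In PS it measured 15.9, 20.1, 22.8 and 23.6 CPM, in RO 16.3, 25.4, 25.5, 31.7 and 109, and in rPS 3.11, 20.5, 26.1, 26.5 and 29.9. The R libraries ran from 20.6 over a median of 24.8 to 112 CPM. The single high values of R and RO are the T-cell-poor replicate 3 of each, the low rPS value is replicate 5, and all groups overlapped.

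Xcr1, the XCL1 receptor of cross-presenting dendritic cells, showed the same split at a lower level. Its NT values were 3.63, 11.6 and 46.5 CPM as lowest, median and highest, and its PS values were 2.02, 2.52, 4.29 and 4.56. In rPS it reached 2.33, 2.57, 4.302, 5.26 and 5.88 CPM and in RO 2.75, 2.97, 3.96, 5.71 and 14.3. R spanned 2.94 to 14.4 CPM with a median of 6.10. The 2 NT libraries that were not T-cell-poor, at 3.63 and 5.77 CPM, lay inside the rPS range.

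Clec9a, which binds exposed actin of dead cells, was lowest at 6.50, median 33.3 and highest 106 CPM in NT. Its rPS values of 2.33, 8.16, 13.1, 17.7 and 34.2 CPM spread more than those of PS at 7.99, 14.4, 15.5 and 17.2. In RO it measured 8.91, 18.05, 20.97, 22.8 and 39.2 CPM, and in R it ran from 13.2 to 95.2 with a median of 18.3. Every group of Clec9a overlapped every other.

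Itgax had NT values of 39.6, 157 and 308 CPM as lowest, median and highest. PS libraries measured 43.7, 56.9, 56.9 and 57.2 CPM and rPS libraries 8.67, 35.7, 53.7, 57.1 and 62.8. RO libraries measured 41.8, 51.04, 60.5, 68.8 and 296 CPM, and R ran from 45.5 over 50.2 to 267. Outside the T-cell-poor libraries and rPS replicate 5, Itgax stayed between 35.7 and 68.8 CPM in all groups.

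Cd209a, a mouse relative of the lectin DC-SIGN, had NT values of 5.42, 18.7 and 41.4 CPM as lowest, median and highest. It measured 3.83, 5.23, 5.90 and 6.50 CPM in PS, 4.58, 5.60, 5.93, 9.28 and 34.5 in RO and 0.777, 3.27, 3.31, 5.77 and 7.86 in rPS. Its R values ran from 3.96 to 18.6 CPM with a median of 5.60. The lowest rPS value rests on 6 counts in replicate 5.

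Zbtb46, the transcription factor that marks the conventional lineage, differed from the receptors. Its NT values were 10.1, 35.5 and 70.7 CPM as lowest, median and highest, and the 2 NT libraries that were not T-cell-poor held the 2 lowest values of all 27, 10.1 in replicate 6 and 11.8 in replicate 2. Those 2 libraries also had the 2 highest Cd3e levels, 471 and 401 CPM. PS measured 21.5, 21.99, 22.6 and 25.1 CPM, RO 13.4, 19.6, 19.8, 20.3 and 30.2 and rPS 15.98, 19.7, 19.8, 20.6 and 25.9. R ran from 15.01 to 44.05 CPM with a median of 18.5. All treated libraries thus lay above these 2 NT libraries, which stood apart from the other 5 NT libraries by their low Zbtb46 as well as by their high Cd3e.

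Siglech, a sialic acid-binding receptor of plasmacytoid cells, was lowest in rPS of all groups. It measured 2.98, 3.33, 7.21, 7.93 and 10.1 CPM in rPS, 10.3, 11.2, 11.8 and 13.004 in PS and 7.79, 13.99, 14.4, 16.6 and 21.9 in RO. The NT values were 10.4, 24.6 and 145 CPM as lowest, median and highest, and those of R were 5.46, 10.01 and 22.1. Siglech did not overlap between rPS and NT, nor between rPS and PS, while R and RO overlapped with rPS. Over all tested genes, every rPS library lay below every NT library in 1.92% and below every PS library in 2.56%.

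Ccr9, the receptor for the gut chemokine CCL25, followed another order. PS libraries measured 48.8, 53.4, 63.1 and 63.6 CPM, RO libraries 21.1, 42.6, 44.5, 45.6 and 48.7 and rPS libraries 22.2, 23.98, 30.2, 46.6 and 57.1. NT values were 13.3, 40.4 and 74.02 CPM as lowest, median and highest and R values 17.97, 32.4 and 42.2. All R and all RO libraries lay below all PS libraries, but the highest RO value of 48.7 CPM was next to the lowest PS value of 48.8. Over all tested genes, R lay wholly below PS in 4.9% and RO wholly below PS in 1.69%.

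Tcf4, the transcription factor of the plasmacytoid lineage, had NT values of 90.8, 240.0 and 420.2 CPM as lowest, median and highest. It measured 124, 145, 164 and 164 CPM in PS, 117, 137, 146, 166 and 202 in RO and 32.5, 122, 131, 138 and 139 in rPS. R values were 144, 161 and 269.6 CPM. All rPS libraries lay below all R libraries, which held for 0.368% of all tested genes, although the edgeR comparison of the same groups did not call Tcf4, at -0.71 ± 0.35 (SE; edgeR adjusted p = 0.452).

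Ccr9 and Xcr1 lie on chromosome 9 with 2 protein-coding genes, Fyco1 and Cxcr6, between them, and differed in pattern across the libraries, Xcr1 being highest in the T-cell-poor libraries and Ccr9 having its lower median there. Their promoters are shown with those of Siglech, which did not overlap between rPS and NT, and Zbtb46, which was lowest in the 2 NT libraries richest in Cd3e. Each is the 250 bases before the RefSeq start of the gene on build GRCm38.p6, read 5′ to 3′ on the gene's own strand, with capitals for matches to an E-box (CAGNTG on either strand, the site type that TCF4 and other E-proteins bind) and to the AP-1 and BATF site (TGANTCA, the same on both strands). Positions are Ccr9 at chr9:123766961-123767210 (plus strand), Xcr1 at chr9:123862030-123862279 (minus strand), Siglech at chr7:55767934-55768183 (plus strand) and Zbtb46 at chr2:181424389-181424638 (minus strand).
Ccr9: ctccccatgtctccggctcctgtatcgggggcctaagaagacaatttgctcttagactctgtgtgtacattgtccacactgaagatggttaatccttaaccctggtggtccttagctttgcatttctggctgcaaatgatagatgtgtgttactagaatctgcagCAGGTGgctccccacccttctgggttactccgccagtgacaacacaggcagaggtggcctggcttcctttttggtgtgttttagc
Xcr1: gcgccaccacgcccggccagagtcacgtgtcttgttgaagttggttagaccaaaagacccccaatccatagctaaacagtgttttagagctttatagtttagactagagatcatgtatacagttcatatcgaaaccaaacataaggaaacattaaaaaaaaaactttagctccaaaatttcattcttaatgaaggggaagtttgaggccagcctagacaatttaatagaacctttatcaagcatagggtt
Siglech: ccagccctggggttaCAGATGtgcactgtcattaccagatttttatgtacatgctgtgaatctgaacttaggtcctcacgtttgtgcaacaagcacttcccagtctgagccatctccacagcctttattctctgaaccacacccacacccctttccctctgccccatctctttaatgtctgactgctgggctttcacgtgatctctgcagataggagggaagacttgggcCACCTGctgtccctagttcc
Zbtb46: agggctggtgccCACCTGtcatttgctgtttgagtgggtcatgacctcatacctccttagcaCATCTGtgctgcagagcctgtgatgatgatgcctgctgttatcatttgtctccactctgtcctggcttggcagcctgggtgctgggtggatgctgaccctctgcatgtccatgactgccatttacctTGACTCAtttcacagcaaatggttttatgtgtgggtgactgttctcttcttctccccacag

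Of the 9 genes 8 had an entry among the RefSeq promoters and Tcf4 had none. The E-box letters occurred in 6 of these 8 against 44.8% of 32817 promoters of the same length, with 1 match in Ccr9, 2 each in Siglech and Zbtb46 and none in Xcr1. The AP-1 and BATF letters occurred in Zbtb46 and Itgax, against 6.75% of all promoters. GAGGAA, the core bound by PU.1 and searched on both strands, occurred in none of the 8 against 23.3% of all. These matches describe letters in the window only.

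The comparison of rPS with NT sets rapamycin in the carrier against no treatment, and 5 of the 9 genes were lower in rPS. Siglech fell by 2.82 ± 0.58 on the log2 scale (SE; edgeR quasi-likelihood test, Benjamini-Hochberg adjusted p = 0.00276), from 42.5 ± 47.3 CPM (SD, n = 7) to 6.31 ± 3.07 CPM (SD, n = 5). Xcr1 changed by -2.40 ± 0.62 (SE; edgeR adjusted p = 0.0106) and Cd209a by -2.40 ± 0.65 (SE; edgeR adjusted p = 0.0131). Tcf4 changed by -1.16 ± 0.34 (SE; edgeR adjusted p = 0.0211) and Itgax by -1.95 ± 0.64 (SE; edgeR adjusted p = 0.0341). Flt3 at -1.68 ± 0.64 (SE; edgeR adjusted p = 0.0611), Clec9a at -1.62 ± 0.68 (SE; edgeR adjusted p = 0.0837), Zbtb46 at -0.83 ± 0.39 (SE; edgeR adjusted p = 0.115) and Ccr9 at -0.32 ± 0.31 (SE; edgeR adjusted p = 0.465) did not pass. Of all 17132 genes, 10.9% were called lower in this comparison, and the median log2 fold change was -1.68 over the 9 genes against -0.010 over all genes. Fewer cells of a type and less RNA per cell cannot be told apart in such bulk samples, here or in the results that follow.

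Which genes passed depended on single libraries and on the T-cell-poor ones. Siglech, Xcr1 and Cd209a passed whichever single NT or rPS library was left out. Tcf4 did not pass without rPS replicate 5 (edgeR adjusted p = 0.0525), and Itgax did not pass without NT replicate 3, 7 or 8 or rPS replicate 4, 5 or 7 (adjusted p from 0.0524 to 0.0833). Without NT replicate 6, Flt3, Clec9a and Zbtb46 passed as well (adjusted p from 0.0318 to 0.0431), as did Flt3 without NT replicate 2 and Clec9a without rPS replicate 1. Without the 7 T-cell-poor libraries NT keeps 2 libraries, and Siglech was still lower in rPS at -1.60 ± 0.41 (SE; edgeR adjusted p = 0.0148), where 8.63% of genes were called lower. Ccr9 was then also lower at -0.83 ± 0.25 (SE; edgeR adjusted p = 0.0298), whereas Zbtb46 was higher at 0.83 ± 0.19 (SE; edgeR adjusted p = 0.0077), where 6.03% of genes were called higher. Xcr1 stood at -0.24 ± 0.42 (SE; edgeR adjusted p = 0.723), Cd209a to -0.94 ± 0.46 (SE; edgeR adjusted p = 0.169), Itgax to -0.15 ± 0.41 (SE; edgeR adjusted p = 0.832) and Tcf4 to 0.19 ± 0.33 (SE; edgeR adjusted p = 0.717), none of which passed. With NT replicate 5 kept, only Siglech passed, at -1.68 ± 0.37 (SE; edgeR adjusted p = 0.0203). With the mean T cell level as a covariate, Siglech at -1.86 ± 0.43 (SE; edgeR adjusted p = 0.0073) and Cd209a at -1.16 ± 0.39 (SE; edgeR adjusted p = 0.0428) were lower, against 7.03% of all genes. With the monocyte and macrophage level as a covariate none of the 9 passed in edgeR, 3 of them (Siglech, Ccr9 and Cd209a) had an unadjusted p under 0.05, and 3.67% of all genes were called; no other tool was run with this covariate. Siglech then stood at -1.83 ± 0.58 (SE; edgeR adjusted p = 0.0781).

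**Figure D2:**
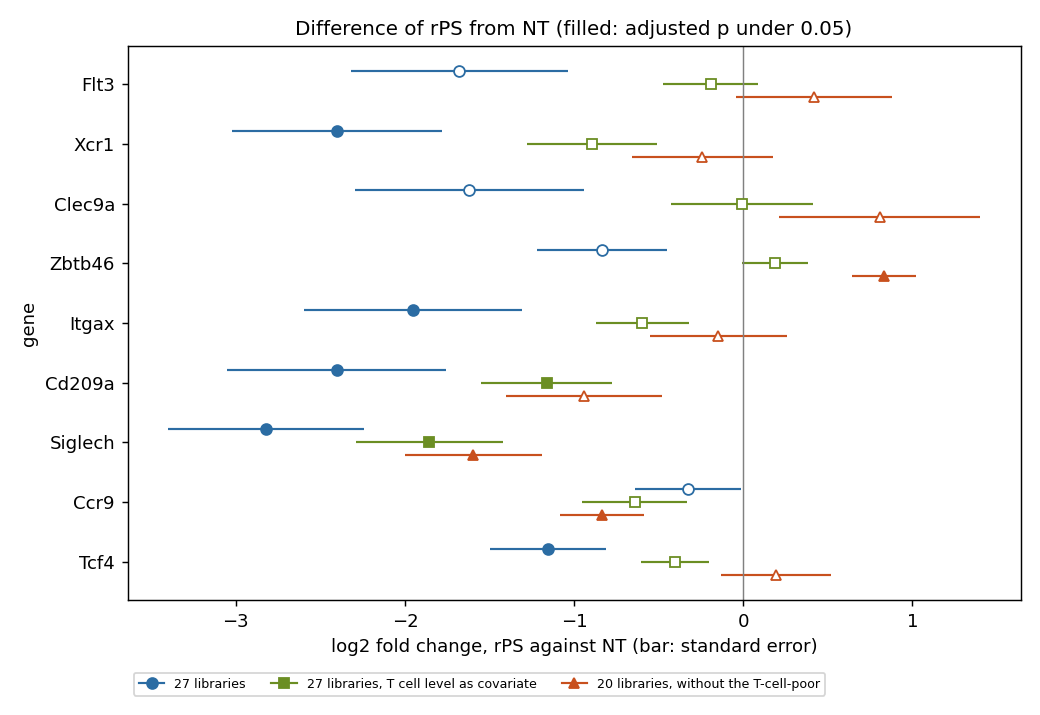
Log2 fold change of rPS against NT (horizontal axis) for the 9 genes, with bars of 1 standard error, from edgeR on 27 libraries (circles), on 27 libraries with the mean T cell level as a covariate (squares) and on the 20 libraries that were not T-cell-poor (triangles); filled symbols have an adjusted p under 0.05. Siglech is filled in all 3 fits, and Zbtb46 lies left of 0 in the first fit and right of it in the other two.

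PS against NT sets the empty carrier against no treatment. Only Xcr1 passed, at -2.73 ± 0.69 (SE; edgeR adjusted p = 0.0393), from 20.8 ± 18.3 CPM (SD, n = 7) to 3.35 ± 1.27 CPM (SD, n = 4), and 2.46% of all genes were called lower. Siglech at -1.98 ± 0.59 (SE; edgeR adjusted p = 0.0509) and Cd209a at -2.10 ± 0.69 (SE; edgeR adjusted p = 0.0589) lay next to the threshold. Ccr9 was the only member above 0, at 0.28 ± 0.33 (SE; edgeR adjusted p = 0.572). The median over the 9 genes was -1.77 against -0.023 over all genes. Without the T-cell-poor libraries Xcr1 stood at -0.57 ± 0.43 (SE; edgeR adjusted p = 0.403) and the only member called was Zbtb46, higher in PS at 0.95 ± 0.19 (SE; edgeR adjusted p = 0.00694), where 2.97% of all genes were called higher. The Xcr1 call was also lost when any 1 PS library, or NT replicate 3, 4, 7 or 8, was left out, with adjusted p from 0.0616 to 0.124. Siglech and Cd209a passed without NT replicate 5 or 6, and Siglech also without NT replicate 2.

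Rapamycin without the carrier gave no call among the 9 genes in edgeR. In R against NT 0.665% of all genes were called in edgeR. An unadjusted p under 0.05 was found for 2374 of all 17132 genes and for 3 of the 9. Siglech at -1.88 ± 0.51 (SE; edgeR adjusted p = 0.0786), Xcr1 at -1.60 ± 0.55 (SE; edgeR adjusted p = 0.184) and Cd209a at -1.50 ± 0.57 (SE; edgeR adjusted p = 0.236) were those 3. Siglech passed without NT replicate 5, NT replicate 6 or R replicate 3 (adjusted p from 0.0264 to 0.0368), and Cd209a without R replicate 3 (adjusted p = 0.0481). DESeq2 called 1 of the 9, which was lower, and 2.1% of all genes lower. In RO against NT, with RO replicate 7 left out, edgeR called 0.0117% of all genes and DESeq2 called none of the 9. An unadjusted p under 0.05 was found for 2178 of all 17132 genes and for 2 of the 9. Those 2 were Xcr1 at -1.76 ± 0.59 (SE; edgeR adjusted p = 0.244) and Siglech at -1.52 ± 0.53 (SE; edgeR adjusted p = 0.256). All 9 log2 fold changes were below 0 in both comparisons, which share the NT libraries with those above.

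Between the treated groups, which have 2 T-cell-poor libraries in all, no member was called. In rPS against PS 0.0817% of all genes were called and none of the 9 had an unadjusted p under 0.05 or a DESeq2 call. The 2 members furthest from 0 were Siglech at -0.84 ± 0.61 (SE; edgeR adjusted p = 1.0) and Ccr9 at -0.60 ± 0.35 (SE; edgeR adjusted p = 1.0). The third plasmacytoid gene, Tcf4, at -0.34 ± 0.38 (SE) was about as far from 0 as the conventional gene Xcr1 at 0.33 ± 0.69 (SE). Flt3 stood at 0.092 ± 0.71 (SE; edgeR adjusted p = 1.0) and Zbtb46 at -0.10 ± 0.43 (SE; edgeR adjusted p = 1.0). In rPS against R 0.0117% of genes were called, none of the 9 had an unadjusted p under 0.05, and Siglech stood at -0.94 ± 0.56 (SE; edgeR adjusted p = 0.506). In rPS against RO, again without RO replicate 7, edgeR called 0.0175% of genes and DESeq2 called none of the 9. An unadjusted p under 0.05 was found for 1389 of all 17132 genes and for 2 of the 9. Those 2 were Siglech at -1.30 ± 0.58 (SE; edgeR adjusted p = 0.571) and Cd209a at -1.62 ± 0.66 (SE; edgeR adjusted p = 0.536). In R against RO 0.0% of genes and none of the 9 were called, nor had any of the 9 an unadjusted p under 0.05 or a DESeq2 call. The difference of differences sets rPS minus PS, rapamycin inside the carrier, against R minus NT. R minus NT holds the CMC vehicle and the injection as well as free rapamycin, since NT was untreated. In edgeR 0.0175% of genes were called, and none of the 9 were called by edgeR or DESeq2. Of the 9 genes 1, Xcr1 at 1.94 ± 0.88 (SE; edgeR adjusted p = 0.914), had an unadjusted p under 0.05, as did 807 of all 17132 genes. This contrast also draws on NT with its T-cell-poor libraries. The median over the 9 genes was 0.68 with 1 of them below 0. Without the 7 T-cell-poor libraries it was -0.31 with 5 below 0.

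Across libraries, 5 of the 9 genes separated the 7 T-cell-poor libraries from the 20 others without overlap, all higher in the former, as did 4.86% of all tested genes. Flt3 ranged over 49.6 to 146 CPM in the T-cell-poor libraries against 3.11 to 31.7 in the others, and Itgax over 130.3 to 308 against 8.67 to 68.8. Xcr1 ranged over 9.65 to 46.5 against 2.02 to 7.20 CPM, and Tcf4 over 202 to 420.2 against 32.5 to 173. Cd209a touched, with a lowest T-cell-poor value of 10.2 CPM in NT replicate 5 against a highest other value of 10.2 in NT replicate 2. Clec9a, Zbtb46 and Siglech overlapped but had higher medians in the T-cell-poor libraries. Ccr9 alone had the lower median there, 21.1 against 45.02 CPM. The T-cell-poor libraries also held more of other cells' transcripts: S100a8 of neutrophils ranged over 13.1 to 235 against 0.518 to 10.6 CPM and Ncr1 of NK cells over 12.4 to 40.9 against 1.68 to 14.3, while Cd79a of B cells overlapped at 63.3 to 293 against 28.999 to 472. What part this makeup has in the differences from NT was not tested beyond the fits above.

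In rPS replicate 5, Cd3e was 347 CPM, Lyz2 18.9 and Cd79a 28.999, which made it the rPS library highest in the T cell gene and lowest in the myeloid and B cell genes. There Flt3 was 0.118 times the median of the other 4 rPS libraries, Clec9a 0.152, Itgax 0.157, Cd209a 0.171 and Tcf4 0.241. Xcr1 at 0.487 and Siglech at 0.393 times that median were less far down. Zbtb46 stood at 0.974 times it, and Ccr9 at 2.11, the highest Ccr9 value of the group. Zbtb46 and Ccr9 were thus not low in the library that was lowest of all 27 in Lyz2 and Cd79a. Without this library and the 7 T-cell-poor ones, Siglech at -1.40 ± 0.40 (SE; edgeR adjusted p = 0.0206) and Ccr9 at -1.07 ± 0.20 (SE; edgeR adjusted p = 0.00195) were lower in rPS than in NT, and Zbtb46 at 0.84 ± 0.20 (SE; edgeR adjusted p = 0.00722), Tcf4 at 0.44 ± 0.14 (SE; edgeR adjusted p = 0.0376) and Flt3 at 0.71 ± 0.24 (SE; edgeR adjusted p = 0.045) were higher. In that fit 10.3% of all genes were called lower and 9.12% higher.

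**Figure D3:**
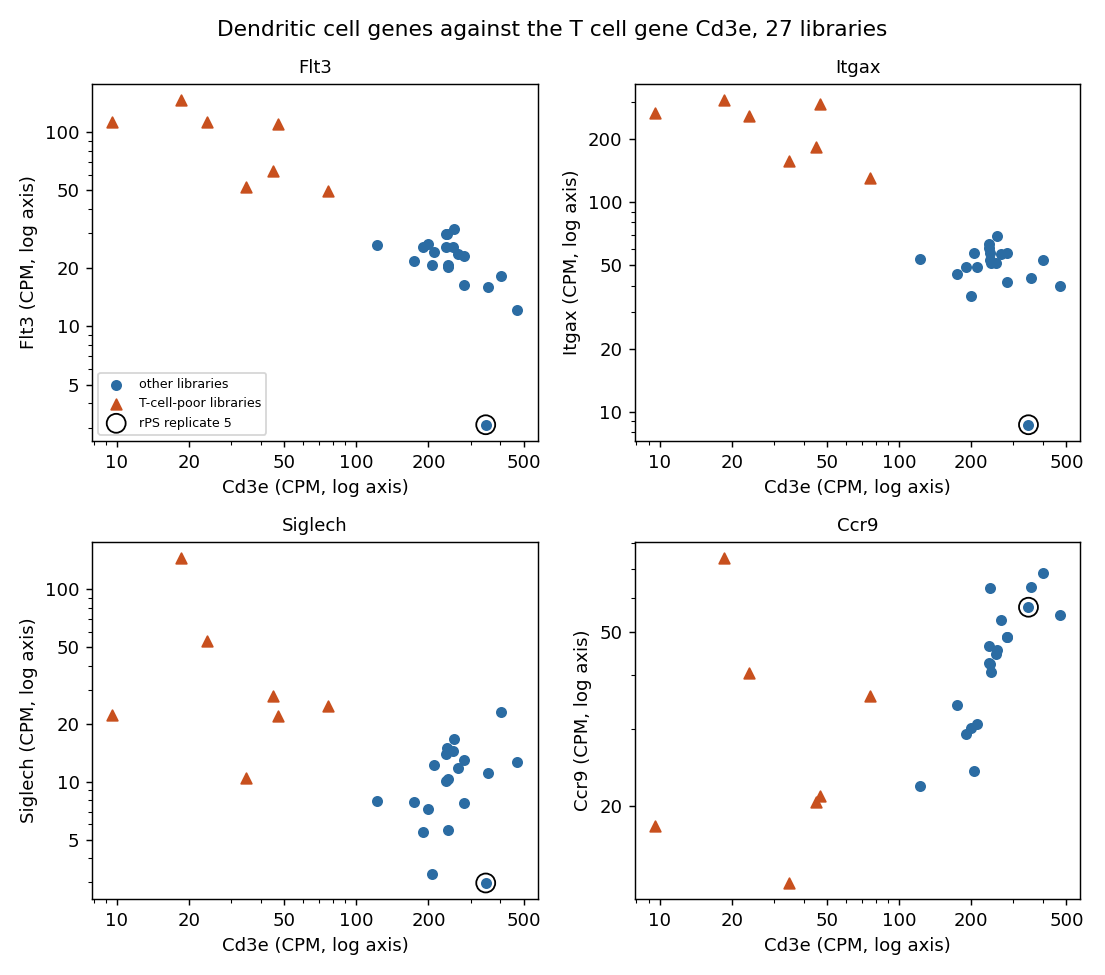
CPM of Flt3, Itgax, Siglech and Ccr9 (vertical, log axes) against CPM of the T cell gene Cd3e (horizontal, log axis) in 27 libraries, with triangles for the 7 T-cell-poor libraries, circles for the 20 others and a ring around rPS replicate 5. Flt3 and Itgax are highest in the triangles and lowest in the ringed library, and among the circles Ccr9 is higher where Cd3e is higher.

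Within the 20 libraries that were not T-cell-poor, correlations of log2 CPM are given as a description only, since the points share depth and cell makeup. Ccr9 was higher where Cd3e was higher (Pearson r = 0.83, Spearman rho = 0.86, n = 20), also without rPS replicate 5 (r = 0.82, n = 19). Flt3 and Lyz2 had r = 0.85, but 0.43 without that library, so the relation rests on it. Zbtb46 had r = -0.47 with Cd3e and rho = -0.14. Among the 15 pairs of conventional genes r had a median of 0.47, or 0.38 without rPS replicate 5, and among the 18 pairs of a conventional with a plasmacytoid gene 0.22 or 0.012. The conventional pairs ran from -0.26 to 0.91, or -0.29 to 0.70 without that library. Of the plasmacytoid pairs, Siglech with Ccr9 had r = 0.42 (0.65 without rPS replicate 5), Siglech with Tcf4 0.35 (-0.26) and Ccr9 with Tcf4 -0.43 (-0.49).

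The genes of most like pattern over the same 20 libraries, out of 11568 with a mean of at least 2 CPM, differed from member to member. Flt3 was closest to Csf2rb2 (r = 0.96, 0.84 without rPS replicate 5) and Csf2rb (r = 0.96, 0.83 without rPS replicate 5), both subunits of IL-3 receptors. Clec9a was closest to Skap2 (r = 0.98, 0.97 without rPS replicate 5), an adaptor protein, and Nfasc (r = 0.96, 0.93 without rPS replicate 5), and Itgax to Ehd4 (r = 0.96, 0.81 without rPS replicate 5) and Rassf4 (r = 0.95, 0.65 without rPS replicate 5). Xcr1 was closest to Fcgr4 (r = 0.83, 0.81 without rPS replicate 5), an Fc receptor, and Il18 (r = 0.82, 0.81 without rPS replicate 5), the cytokine interleukin 18. Cd209a was closest to Sh2d1b1 (r = 0.91, 0.76 without rPS replicate 5) and Tlr7 (r = 0.90, 0.76 without rPS replicate 5), the endosomal sensor of single-stranded RNA. Zbtb46 was closest to Fbxo40 (r = 0.80, 0.80 without rPS replicate 5) and Erfe (r = 0.80, 0.79 without rPS replicate 5), a hormone of erythroid precursors. Siglech was closest to Runx2 (r = 0.80, 0.82 without rPS replicate 5), a runt-family transcription factor, and Ighv1-74 (r = 0.80, 0.73 without rPS replicate 5), an immunoglobulin segment. Ccr9 was closest to Dlg4 (r = 0.91, 0.91 without rPS replicate 5) and Tet1 (r = 0.89, 0.89 without rPS replicate 5), a DNA demethylase, and Tcf4 to Bcl11a (r = 0.97, 0.90 without rPS replicate 5), a zinc finger factor of B cells and plasmacytoid cells, and Lrrk2 (r = 0.96, 0.89 without rPS replicate 5), a kinase.

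The conventional and plasmacytoid genes were also set side by side as mean log2 CPM in each library, as a description with no test; gene length enters these means, so only groups, not the classes, are compared. The conventional mean was 5.10 ± 1.21 (SD, n = 7) in NT, 3.70 ± 0.27 (SD, n = 4) in PS, 4.23 ± 0.89 (SD, n = 6) in R, 4.24 ± 0.97 (SD, n = 5) in RO and 3.49 ± 0.86 (SD, n = 5) in rPS. The plasmacytoid mean was 5.99 ± 0.76 (SD, n = 7), 5.46 ± 0.030 (SD, n = 4), 5.28 ± 0.33 (SD, n = 6), 5.45 ± 0.21 (SD, n = 5) and 4.76 ± 0.39 (SD, n = 5) in that order, lowest in rPS. Its rPS libraries ran from 4.21 to 5.23 and overlapped those of R (from 4.86), RO (from 5.13) and NT (from 5.20). In the 20 libraries that were not T-cell-poor, Ccr9 followed Cd3e, as given above. Tcf4 followed the B cell gene Cd79a there (r = 0.85, 0.50 without rPS replicate 5). The plasmacytoid mean thus need not follow plasmacytoid cells alone. Zbtb46 had r from -0.26 (Cd209a) to 0.19 (Clec9a) with the other conventional genes in these libraries. Without rPS replicate 5 it ran from -0.29 (Cd209a) to 0.51 (Flt3). The conventional mean need not follow conventional cells alone either. Conventional minus plasmacytoid was -0.89 ± 0.84 (SD, n = 7) in NT, -1.76 ± 0.24 (SD, n = 4) in PS, -1.05 ± 0.68 (SD, n = 6) in R, -1.21 ± 0.80 (SD, n = 5) in RO and -1.27 ± 0.59 (SD, n = 5) in rPS, and these groups overlapped. The difference ran from -0.97 to 0.26 in the T-cell-poor libraries and from -2.19 to -0.58 in the others. The 2 NT libraries that were not T-cell-poor averaged -2.01, R without its T-cell-poor library -1.31 and RO without its own -1.56.

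**Figure D4:**
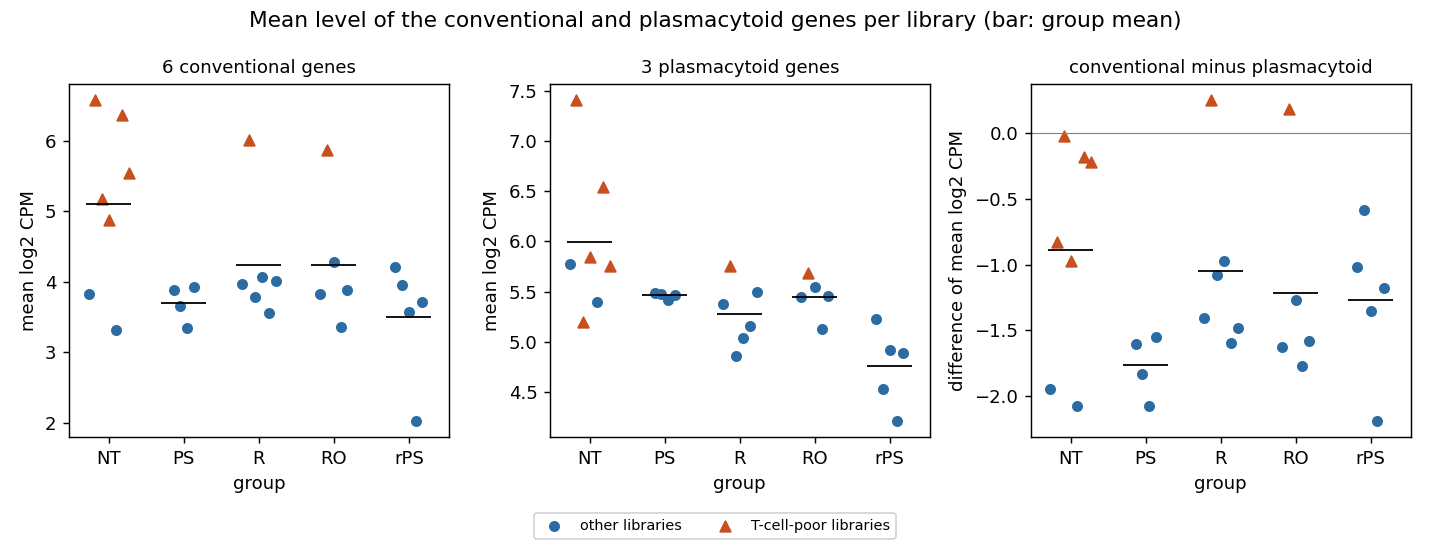
Mean log2 CPM of the 6 conventional genes, of the 3 plasmacytoid genes and their difference (vertical axes) in each of the 27 libraries by group, with triangles for the 7 T-cell-poor libraries, circles for the 20 others and a bar at the group mean. The triangles are the highest conventional means of their groups. The group mean of the plasmacytoid genes lies lowest in rPS, whose libraries overlap those of NT, R and RO.

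Further dendritic cell genes were taken from lists that were chosen with earlier results of these data known, so their counts are no independent evidence of a direction. Some of their genes also stand in the lists of other cells given below, so the counts are not separate. Kit is also in the stem and progenitor list, and Irf4 and Mzb1 are in the plasma cell list. Ly6d is also in the B cell list and Csf1r in the monocyte and macrophage list. In rPS against NT, 5 of 13 tested genes of cross-presenting cells were lower, with a median log2 fold change of -1.13, among them Cxcl9, a T cell-attracting chemokine, at -3.11 ± 0.61 (adjusted p = 0.00196) and Tlr3, a double-stranded RNA sensor, at -1.63 ± 0.46 (adjusted p = 0.0165). Of the genes of CD11b-type conventional cells 4 of 15 were lower (median -1.36), including Irf4 at -0.73 ± 0.26 (adjusted p = 0.0438) and the lectin Clec4a2 at -2.23 ± 0.75 (adjusted p = 0.0367). Of mature dendritic cell genes 3 of 13 were lower (median -0.72), including the costimulators Cd80 at -1.38 ± 0.39 (adjusted p = 0.0171) and Cd86 at -1.18 ± 0.35 (adjusted p = 0.0221). Of plasmacytoid genes 9 of 20 were lower (median -1.36), including Tlr7 at -2.24 ± 0.57 (adjusted p = 0.00988) and Bst2, a membrane tether of viruses, at -0.95 ± 0.26 (adjusted p = 0.0145). Of dendritic cell development genes 3 of 14 were lower (median -1.37), including the receptor Kit at -1.61 ± 0.43 (adjusted p = 0.0127) and Id2, an E-protein antagonist, at -0.75 ± 0.24 (adjusted p = 0.0297). The share of all genes called lower was 10.9%, as above, and edgeR called no gene of these 5 lists higher. In PS against NT 3 of 13 cross-presenting genes, 1 of 15 CD11b-type genes and 1 of 14 development genes were lower, against 2.46% of all genes, with Cxcl9 at -2.74 ± 0.63 (adjusted p = 0.0363) and Tlr3 at -1.85 ± 0.50 (adjusted p = 0.0439). Without the T-cell-poor libraries, where 4.65% of all genes were called lower, the counts were 0, 1 and 1, with 4 cross-presenting genes at an unadjusted p under 0.05, Cxcl9 at -1.62 (adjusted p = 0.0938) and Tlr3 at -0.23 (adjusted p = 0.763). With the monocyte and macrophage covariate edgeR called 0 of each list, with 2, 4 and 4 genes at an unadjusted p under 0.05.

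Genes of other cells were lower beside them in rPS against NT, namely 15 of 15 neutrophil genes, 9 of 15 monocyte and macrophage genes, 9 of 10 NK cell genes, 10 of 10 plasma cell genes and 3 of 15 B cell genes. Of the stem and progenitor genes 4 of 8 tested were lower (median -2.27). The T cell list had a median log2 fold change of 0.57. Red pulp macrophage genes (0 of 11 called lower by edgeR, 0 at an unadjusted p under 0.05, median -0.44) and marginal zone macrophage genes (0 of 3, 1 at an unadjusted p under 0.05, median -0.71) had no lower call. In this fit 6483 of all 17132 genes had an unadjusted p under 0.05. DESeq2 was not counted over lists. With the monocyte and macrophage level as a covariate, where 2.19% of all genes were called lower, the lower calls came to 1 for the cross-presenting list, 1 for the CD11b-type list, 1 for the plasmacytoid list, and 0 for the mature list (1 at an unadjusted p under 0.05) and the development list (4 at an unadjusted p under 0.05). The medians were then -0.0085, 0.23, -0.42, -0.22 and 0.31 in that order, and 1 development gene was called higher. Without the 7 T-cell-poor libraries the counts of lower genes were 2 for the cross-presenting list, 1 for the CD11b-type list, 1 for the mature list, 3 for the plasmacytoid list and 1 for the development list, with medians of 0.36, 0.33, -0.32, -0.49 and 0.11. Of all genes 8.63% were called lower in that fit, and the single genes of the CD11b-type, mature and development lists (of 15, 13 and 14) lie near that share; 1 mature gene was called higher. In that fit Bst2 at -0.86 (edgeR adjusted p = 0.0363), Cxcl9 at -1.99 (adjusted p = 0.0308) and Id2 at -0.93 (adjusted p = 0.0405) were still lower, as were 8 of 15 T cell genes. The other genes named above did not pass there: Tlr3 stood at -0.019 (adjusted p = 0.979), Irf4 at 0.039 (adjusted p = 0.95), Clec4a2 at -0.21 (adjusted p = 0.843) and Kit at -0.087 (adjusted p = 0.878). Cd80 stood at -0.10 (adjusted p = 0.863), Cd86 at -0.51 (adjusted p = 0.387) and Tlr7 at -0.84 (adjusted p = 0.096).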

How the data were processed

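RNA of splenic cells labelled as CD3+ T cells was measured in 28 libraries, 1 gene table each. The authors deposited a count per gene that is partly fractional (21.3% to 25.0% of values) and was taken as an expected count. Annotation, counting tool and strandedness: not given in the sources used here. In the submitters' processing notes Trimmomatic 0.39, STAR 2.7.5a, Cufflinks 2.1.1, Cuffdiff and build GRCm39 are named. Identifiers were matched without their version to GENCODE M21 for symbols, chromosomes and exon lengths (52082 of 55413).

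Counts were rounded and scaled by TMM, and CPM is relative to the library total. RO replicate 7 was left out. The test was edgeR 4.0.16 (R 4.3.3) with quasi-likelihood F tests, robust dispersion and filterByExpr, 1 group term over 27 libraries, 9 contrasts, and Benjamini-Hochberg adjustment over 17132 genes with calls under 0.05. The procedure was tested on simulated data. Alternatives were DESeq2 1.42.0, limma 3.58.1 (voom), other size factors, filters and library sets, covariates, a replicate block and leaving out each of 27 libraries. Mean log2 CPM used a prior count of 2.

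The members and the 14 gene lists were chosen with earlier results of these data known. Besides the 9 members, the text names the 2 genes of most like pattern per member, up to 4 called genes per dendritic cell list and comparison with the smallest p, and Cd3e, Lyz2, S100a8, Cd79a and Ncr1. Libraries of a group are labelled as replicates without naming separate animals, so p-values measure the spread between these libraries. Floors and depth cover counting error only.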

Additional observations from a re-analysis of the deposited data

Results flagged for a closer look

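In 17 of 50 sets of 1 gene or class level in 1 group of 4 to 10 libraries, the highest or lowest library stood far from the rest by Dixon's criterion, where chance gives about 1 in 20. Most of these were the T-cell-poor replicate 3 of R or of RO. R replicate 3 was the highest of its group in Flt3 (112 CPM), Xcr1 (14.4 CPM), Clec9a (95.2 CPM), Zbtb46 (44.0 CPM), Itgax (267 CPM), Cd209a (18.6 CPM), Tcf4 (269.6 CPM) and the conventional minus plasmacytoid level (0.26 on the log2 scale). RO replicate 3 was the highest of its group in Flt3 (109 CPM), Xcr1 (14.3 CPM), Itgax (296 CPM), Cd209a (34.5 CPM) and the class level (0.19), and the lowest in Ccr9 (21.1 CPM).

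Outside replicate 3 of R and of RO, Siglech stood high at 145 CPM in NT replicate 3, which is also T-cell-poor. Tcf4 stood low in rPS replicate 5 at 32.5 CPM, and Itgax stood low in PS replicate 4 at 43.7 CPM.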

How the results depend on the processing

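Siglech in rPS against NT was below 0 in all 27 alternatives run for it, with log2 fold changes from -3.18 to -1.40. The edgeR, DESeq2 or limma adjusted p ran from 4.62e-06 to 0.0781. Siglech was called lower in 26 of the 27, and the exception was the monocyte and macrophage covariate. The count of members called in rPS against NT, 5, was 8 with limma voom (35.5% of all genes called, against 21.5%). It was 3 in a fit of only those groups (7.07%), 3 with a replicate block (10.6%) and 0 with the monocyte and macrophage covariate (3.67%). It was 2 with the T cell covariate (14.7%) and 1 with NT replicate 5 kept (3.19%). Leaving out each library gave 3 to 8, with 3 without rPS replicate 5 (13.8%) and 8 without NT replicate 6 (26.1%). Every member called in these fits was lower. Without the 7 T-cell-poor libraries it was 3 (14.7%), 1 higher and 2 lower. In PS against NT, 1 became 0 without the low-count filter, with all 28 libraries and with the block. It was also 0 with the monocyte or T cell covariate and with NT replicate 5 kept. It became 2 on genes before the stop in RO replicate 7 (7.42% of all genes) and with library sizes without abundant genes (5.49%). It became 3 in a fit of only those groups and with the B cell covariate, 6 with DESeq2 and 8 with voom. Leaving out 1 library gave 0 to 3 (3 without NT replicate 5, 16.9%, or 6, 13.7%). Every member called in these fits was lower. Without the 7 it was 1 (7.62%), and without rPS replicate 5 as well 2 (11.5%), all higher. The share of all genes called either way in PS against NT was 54.8% with voom, 17.2% with DESeq2, 14.1% with the B cell covariate and 12.3% in the fit of those groups, against 4.97%. In R against NT, 0 became 1 with DESeq2 (2.67% of all genes) and 8 with voom (41.3%), all lower. Without the 7 and rPS replicate 5 it became 3 (7.13%), 2 higher and 1 lower. Leaving out 1 library gave 0 to 2, with 2 lower without R replicate 3, where 3.23% of all genes were called. In RO against NT, 0 became 8 with voom (47.2% of all genes), all lower. Without those 8 libraries it became 1 (6.0%), which was Tcf4 and higher. Without the same 8 libraries, rPS against PS had 1 member, lower (Ccr9, edgeR adjusted p = 0.0297), where 0.592% of all genes were called. The difference of differences then also had 1, lower, where 0.552% of all genes were called. With voom on all 27 libraries the difference of differences had 3, all higher, where 10.7% of all genes were called. The cause of these changes was not tested. The covariate and T-cell-poor alternatives, other than the monocyte and B cell covariates, were chosen after seeing the data.

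Signs turned and passed, or left a call, as follows. Without the 7, Zbtb46 was 0.95 in PS and 0.83 in rPS against NT, and Tcf4 0.19 in rPS. Without rPS replicate 5 as well, Zbtb46 was 0.94 in PS, 0.62 in R and 0.84 in rPS, Tcf4 was 0.54 in PS, 0.70 in R, 0.48 in RO and 0.44 in rPS, and Flt3 was 0.71 and Itgax 0.13 in rPS, each against NT. The lowest values of these results on leaving out 1 library were -0.89 for Zbtb46 and -0.95 for Tcf4 in PS, -0.64 for Tcf4 in R, and -1.86 for Flt3, -0.995 for Zbtb46, -2.12 for Itgax and -1.30 for Tcf4 in rPS. In 71 other cases the sign changed where neither value passed.

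The class level (conventional minus plasmacytoid) was -0.00036 in NT, -0.92 in PS, 0.045 in R, -0.32 in RO and -0.32 in rPS without Tcf4. As a log2 ratio of summed CPM it was -0.13 in NT, -0.87 in PS, -0.51 in R, -0.33 in RO and -0.62 in rPS. It was -2.16 in PS without Itgax and -2.01 in NT without the T-cell-poor libraries. The lowest and highest on leaving out 1 library were -1.04 and -0.69 for NT, -1.84 and -1.66 for PS, -1.31 and -0.94 for R, -1.56 and -1.07 for RO, and -1.44 and -1.03 for rPS.

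With the replicate number as a block, rPS against NT called 3 members (Siglech -2.40, Cd209a -2.14 and Xcr1 -1.91) and 1811 genes in place of 3688, and PS against NT called 0 members. The numbers are not shown to pair the libraries: deviations of 38 same-numbered pairs correlated from -0.357 to 0.763 with a median of 0.042, against a median of -0.0087 for 251 other pairs.

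Over all genes, calls ranged across the alternatives other than leaving out a library from 2 to 9388 in PS against NT (851), 10 to 7082 in R against NT (114), 0 to 8087 in RO against NT (2), 542 to 6081 in rPS against NT (3688), 1 to 103 in rPS against PS (14), 0 to 75 in rPS against R (2), 0 to 63 in rPS against RO (3), 0 to 125 in R against RO (0) and 1 to 1825 in the difference of differences (3). Depth limits Cd209a and Xcr1 most, with lowest counts of 6 and 11.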
